A study of Mus musculus with 6 samples.

Results

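Immune checkpoint receptors and their ligands are described here in mouse tumors grown at 2 sites from Renca, a line of renal carcinoma cells derived from the BALB/c strain. The 10 genes form a list given by name: Pdcd1 with its ligand genes Cd274 and Pdcd1lg2, Cd28 and Ctla4 with their shared ligand genes Cd80 and Cd86, and the receptor genes Havcr2, Lag3 and Tigit. All 10 were measured among 19938 genes, 9 of them by 1 row of the array and Cd80 by 2, of which the row with the higher mean was used. Cells had been injected into the outer cortex of the kidney (intrakidney tumors 1 to 3) or under the skin (subcutaneous tumors 1 to 3) of BALB/c mice, and each tumor came from its own mouse on day 12. Both groups carry the same transplanted line in an immunocompetent host of the same strain, with no drug treatment named in the labels. RNA of whole snap-frozen tumor was hybridised, so the values mix tumor cells, immune cells and host tissue.

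Checkpoint receptors set how strongly a T cell responds once its antigen receptor is engaged. CD28 binds CD80 and CD86 on antigen-presenting cells and co-stimulates, CTLA-4 binds the same ligands with higher affinity and restrains the response, and PD-1 restrains it on binding PD-L1 or PD-L2. TIM-3, LAG-3 and TIGIT are further inhibitory receptors of activated T cells, and TIM-3 is also found on macrophages and dendritic cells. In tumors, PD-L1 is made by cancer cells and myeloid cells and is induced by interferon gamma.

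None of these genes passed the test between sites over all genes. With limma, 0 of the 10 passed an adjusted p of 0.05, beside 46 of all 19938 genes, a background of 0.231%. At an unadjusted p of 0.05, 2 of the 10 passed, beside 8.43% of all genes: Havcr2, which encodes TIM-3, and Ctla4, both lower in intrakidney tumors. These were also the only checkpoint genes whose groups did not overlap, a state that 14.9% of all genes showed in either direction, 8.41% with the intrakidney tumors higher and 6.53% with them lower. Of the 10 genes, 8 lay lower and 2 higher in intrakidney tumors, with a median log2 difference of -0.06, against a median of -0.006 and 10374 lower of 19938 over all genes. Differences are intrakidney minus subcutaneous throughout, values are log2 RMA intensities, and the number of arrays limits their precision.

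**Figure D1:**
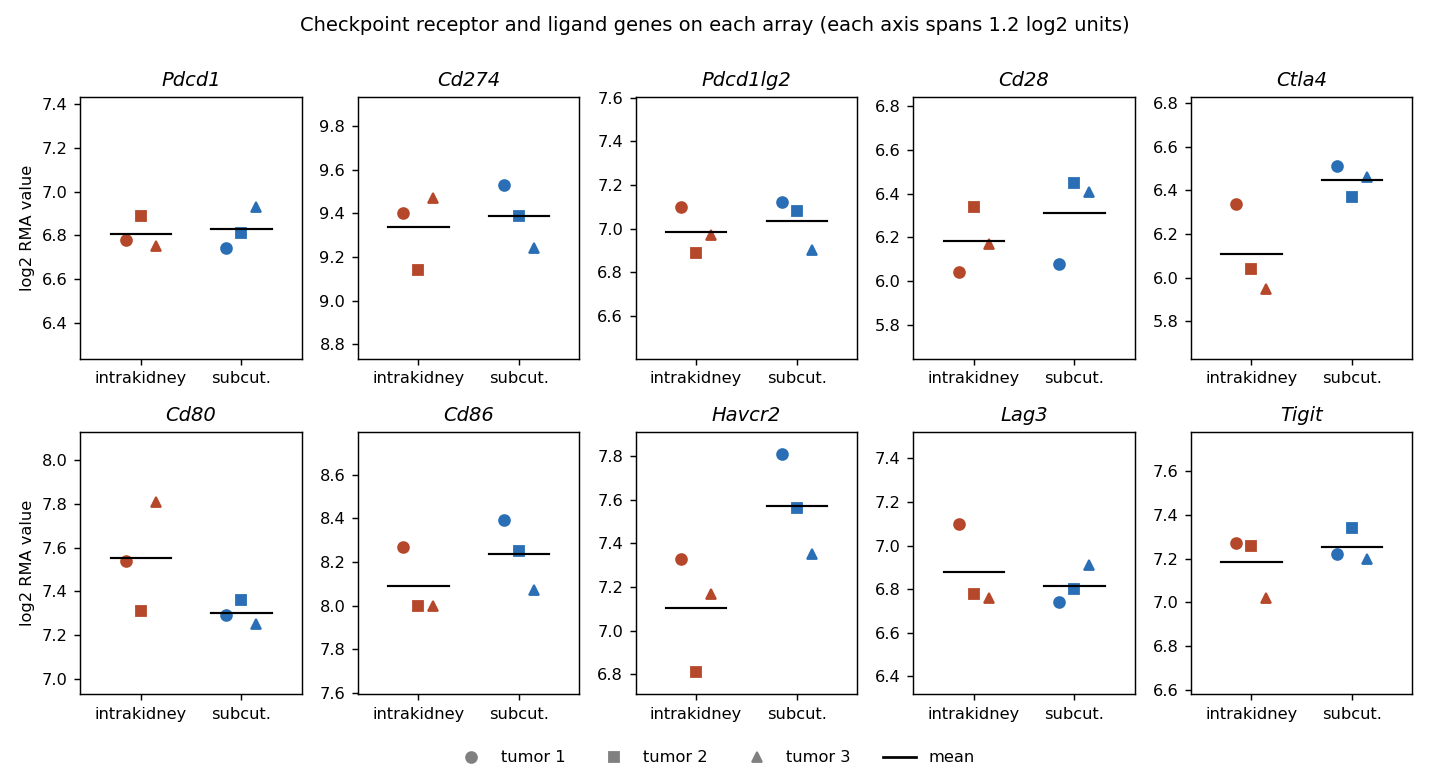
Each panel plots the log2 RMA value of 1 checkpoint gene in the 3 intrakidney (red) and 3 subcutaneous (blue) tumors, with the marker giving the tumor number and the line the group mean. The groups are apart for Ctla4 (intrakidney up to 6.34, subcutaneous from 6.37) and Havcr2 (up to 7.33, from 7.35) and overlap for the other genes.

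Before the single genes, the cells that carry them were read from marker genes. The mean over 12 T cell markers stood at 6.86, 6.79 and 6.63 in intrakidney tumors 1, 2 and 3, against 7.03, 6.93 and 6.97 in subcutaneous tumors 1, 2 and 3. All 12 lay lower in intrakidney tumors, 0 of them past the threshold, with a median difference of -0.14 and values of -0.49 for Cd3d and -0.41 for Cd3e, which encode chains of the T cell receptor complex, and -0.42 for the coreceptor gene Cd4. The 10 macrophage markers had a median difference of 0.10, with means of 10.44, 10.26 and 10.21 against 10.25, 10.19 and 10.18, with 6 of the 10 higher and 4 lower, from 0.44 for Cd14 and the scavenger receptor gene Msr1 to -0.17 for Aif1. Ptprc, which encodes the CD45 antigen of all leukocytes, differed by -0.03 (adjusted p = 0.980). Transcripts of proximal tubule were uneven: the mean over 10 markers stood at 6.25, 6.74 and 7.51 in the order of the intrakidney tumors, against 6.09 to 6.26 in subcutaneous tumors, and Cyp2e1, a cytochrome of tubule and liver, reached 10.02 in intrakidney tumor 3. Keratin 8, a marker of the Renca epithelium, lay between 13.16 and 13.35 in all 6 tumors. The epithelial adhesion gene Cdh1 measured 9.09, 9.53 and 9.30 in intrakidney and 9.78, 9.91 and 9.79 in subcutaneous tumors. Its groups did not overlap (difference -0.52, limma, adjusted p = 0.209). The 7 markers of Renca and kidney epithelium as a list had a median difference of -0.02, with 3 higher and 4 lower. Markers of other tissue cells also moved with the site. All 6 fibroblast markers lay lower in intrakidney tumors, with a median difference of -0.64 and as little as -0.056 for Pdgfrb. Postn, which encodes the matrix protein periostin, fell by 1.66 (limma, adjusted p = 0.0460). All 6 adipocyte markers lay higher, with a median of 0.62 and as little as 0.026 for Lep. The fatty acid binding protein gene Fabp4 rose by 2.08 and the lipid droplet gene Cidec by 0.66 (limma, adjusted p = 0.00637 and 0.0280). All 6 endothelial markers lay higher, with a median of 0.30 and as little as 0.009 for Pecam1. Emcn, which encodes endomucin, rose by 0.72 (limma, adjusted p = 0.0460). Their part in the values of the checkpoint genes was not tested. In these bulk samples, fewer cells of a type and less RNA per cell cannot be told apart.

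**Figure D2:**
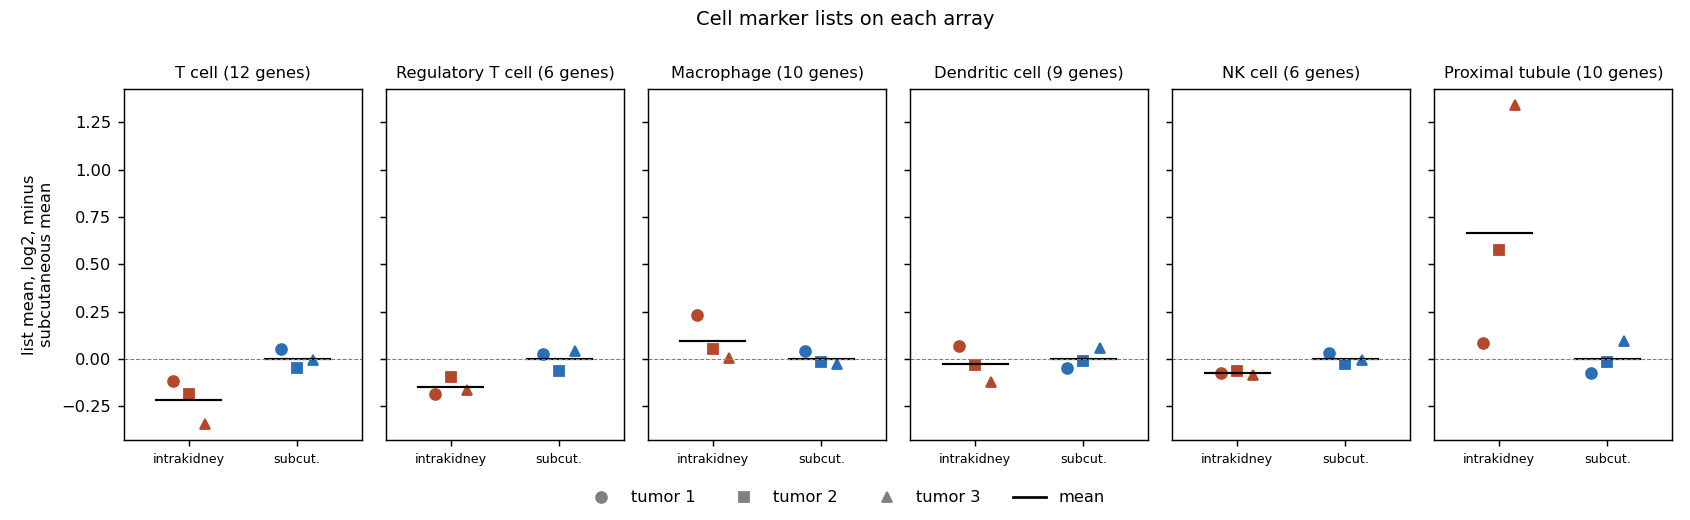
Each panel plots the mean log2 value of a marker list per tumor, minus the mean of the subcutaneous tumors, with red for intrakidney, blue for subcutaneous and a line for the group mean. The T cell list lies lower in all 3 intrakidney tumors, while the proximal tubule list is highest in intrakidney tumor 3 and next highest in tumor 2.

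Genes of PD-1 and its ligands did not differ between sites by more than the spread between tumors. Pdcd1, which encodes PD-1, measured 6.78, 6.89 and 6.75 in intrakidney tumors 1, 2 and 3 and 6.74, 6.81 and 6.93 in subcutaneous tumors 1, 2 and 3. The groups overlapped over nearly their whole range, and the difference was -0.02 ± 0.08 (SE; 95% interval -0.21 to 0.16; limma, adjusted p = 0.974). Cd274, which encodes PD-L1, measured 9.40, 9.14 and 9.47 in intrakidney tumors and 9.53, 9.39 and 9.24 in subcutaneous tumors. Its lowest value was in intrakidney tumor 2 and its highest in subcutaneous tumor 1, with the other tumors mixed between them. The difference of -0.05 ± 0.11 (SE, adjusted p = 0.955) had an interval that ran from 0.803-fold to 1.16-fold, and differences within it cannot be told from 0 with these arrays.

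Pdcd1lg2, which encodes PD-L2, a ligand mostly of dendritic cells and macrophages, measured 7.10, 6.89 and 6.97 in intrakidney tumors and 7.12, 7.08 and 6.90 in subcutaneous tumors. The groups overlapped, with the lowest tumor of each group at nearly the same value, and the difference was -0.05 ± 0.09 (SE; 95% interval -0.27 to 0.17; limma, adjusted p = 0.951). Both ligand genes moved together from tumor to tumor more than with the site.

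Of the CD28 and CTLA-4 receptor pair, Ctla4 was the one with separate groups. It measured 6.34, 6.04 and 5.95 in intrakidney tumors 1, 2 and 3 and 6.51, 6.37 and 6.46 in subcutaneous tumors 1, 2 and 3. Intrakidney tumor 1 lay just under the subcutaneous tumors, and intrakidney tumors 2 and 3 lay well under them. The group means were 6.11 ± 0.21 and 6.45 ± 0.07 (SD, n = 3 per group), a 1.26-fold difference of -0.34 ± 0.11 (SE; 95% interval -0.60 to -0.08; limma, adjusted p = 0.441). The intrakidney tumors with the lowest Ctla4 were those with the most tubule transcripts. Without these, which leaves 1 intrakidney array, the difference was -0.10, and the arrays left out are the 2 with the lowest Ctla4. With the mean of the tubule, T cell or macrophage markers as a covariate it was -0.14, -0.02 or -0.50 (limma, adjusted p = 0.773, 0.987 and 0.0813). The T cell mean was itself lower in every intrakidney tumor (6.63 to 6.86, against 6.93 to 7.03 in subcutaneous tumors). The tubule mean was highest in intrakidney tumors 2 and 3. In intrakidney tumor 1 the tubule mean (6.25) lay within the subcutaneous range of 6.09 to 6.26. The T cell covariate thus shares its difference with the site, and the tubule covariate does so through tumors 2 and 3. A fit on 6 arrays cannot separate either from the site. The macrophage mean overlapped between sites (10.44, 10.26 and 10.21 in intrakidney, 10.25, 10.19 and 10.18 in subcutaneous tumors), and its part was not tested either. Array weights, which rest the intrakidney group mostly on tumor 3 (weight 2.571, against 0.351 and 0.679), gave a Ctla4 difference of -0.40 and a limma adjusted p of 0.0430. The part of tubule or T cell content in the Ctla4 values was not tested and cannot be told apart from the site here.

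Cd28, the co-stimulatory receptor gene next to Ctla4 on the chromosome, measured 6.04, 6.34 and 6.17 in intrakidney tumors and 6.08, 6.45 and 6.41 in subcutaneous tumors. The lowest tumor of both groups was tumor 1, and the groups overlapped. Its difference was -0.13 ± 0.12 (SE; 95% interval -0.42 to 0.16; limma, adjusted p = 0.868). Ctla4, Cd28 and Pdcd1 had means below the 40th percentile of all genes, a log2 value of 6.82, where array values are compressed.

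The ligands of this pair went opposite ways by values that did not pass the test. Cd80, which encodes a ligand induced on activated antigen-presenting cells, measured 7.54, 7.31 and 7.81 in intrakidney tumors and 7.29, 7.36 and 7.25 in subcutaneous tumors. Intrakidney tumors 1 and 3 lay above all subcutaneous tumors and intrakidney tumor 2 lay among them, with a difference of 0.25 ± 0.12 (SE; 95% interval -0.04 to 0.54; limma, adjusted p = 0.671). The value was 0.12 without intrakidney tumor 3. A further, dimmer row of Cd80 measured 6.92, 6.94 and 6.95 against 6.73, 6.86 and 6.75, with groups that did not overlap and a difference of 0.16 (exact permutation, two-sided, p = 0.1, which is the lowest value possible with 3 tumors per group).

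Cd86, which encodes the ligand that macrophages and dendritic cells carry at rest, measured 8.27, 8.00 and 8.00 in intrakidney tumors and 8.39, 8.25 and 8.07 in subcutaneous tumors. Intrakidney tumors 2 and 3 were the lowest of the 6, and intrakidney tumor 1 lay among the subcutaneous tumors. The difference was -0.15 ± 0.11 (SE; 95% interval -0.41 to 0.11; limma, adjusted p = 0.808).

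Havcr2 had the largest difference of the 10 genes. It measured 7.33, 6.81 and 7.17 in intrakidney tumors 1, 2 and 3 and 7.81, 7.56 and 7.35 in subcutaneous tumors 1, 2 and 3. The groups did not overlap, but the highest intrakidney and the lowest subcutaneous tumor were nearly level, and each group spread over about as much as the difference between the means. The means were 7.10 ± 0.26 and 7.57 ± 0.23 (SD, n = 3 per group), a 1.39-fold difference of -0.47 ± 0.16 (SE; 95% interval -0.84 to -0.10; limma, adjusted p = 0.458). Without each array in turn it ran from -0.58 to -0.33. Its sign could not change there, because the groups do not overlap.

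Lag3, whose protein binds major histocompatibility complex class II, measured 7.10, 6.78 and 6.76 in intrakidney tumors and 6.74, 6.80 and 6.91 in subcutaneous tumors. Intrakidney tumor 1 was the highest of the 6, and the rest were mixed, with a difference of 0.06 ± 0.11 (SE; 95% interval -0.19 to 0.31; limma, adjusted p = 0.943). Tigit, whose protein binds the poliovirus receptor, measured 7.27, 7.26 and 7.02 in intrakidney tumors and 7.22, 7.34 and 7.20 in subcutaneous tumors. All tumors lay close together except intrakidney tumor 3, which was low, and the difference was -0.07 ± 0.09 (SE; 95% interval -0.28 to 0.14; limma, adjusted p = 0.913).

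**Figure D3:**
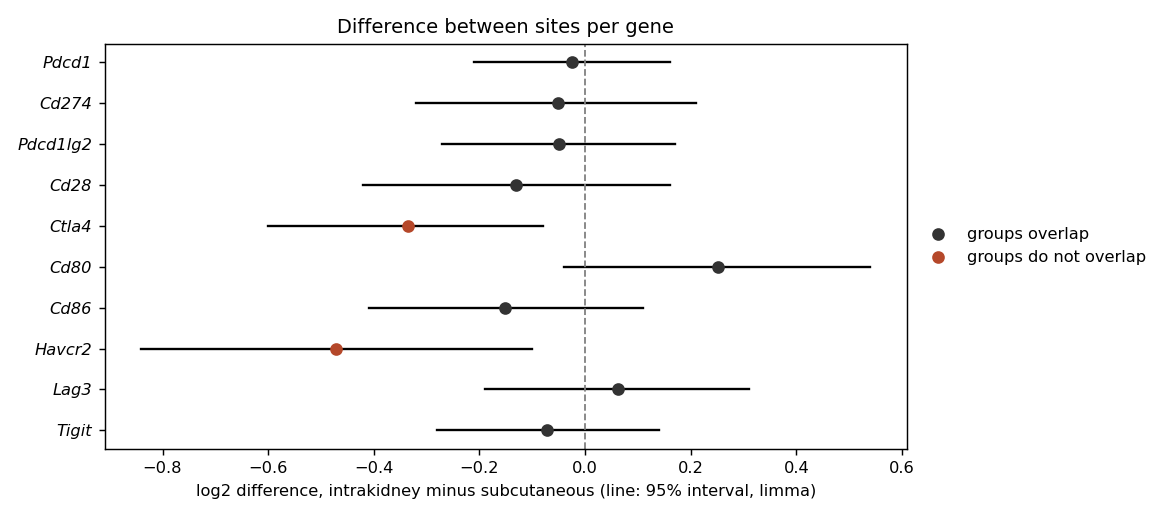
Points show the log2 difference of each checkpoint gene, intrakidney minus subcutaneous, and lines its 95% interval from limma, in red where the groups do not overlap. The intervals of Ctla4 (-0.60 to -0.08) and Havcr2 (-0.84 to -0.10) lie below 0, and those of the other 8 genes include 0.

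The stretches before the start sites of Ctla4 and Havcr2 are shown because these were the checkpoint genes with separate groups. They are the 250 bases upstream of the RefSeq start (GRCm38.p6, both genes on the + strand), chr1:60908775-60909024 for Ctla4 and chr11:46454681-46454930 for Havcr2. Capitals mark matches, on either strand, to GGAAA, the core that NFAT binds, or TGANTCA, the AP-1 motif; both factors act downstream of T cell receptor and CD28 signals.
Ctla4: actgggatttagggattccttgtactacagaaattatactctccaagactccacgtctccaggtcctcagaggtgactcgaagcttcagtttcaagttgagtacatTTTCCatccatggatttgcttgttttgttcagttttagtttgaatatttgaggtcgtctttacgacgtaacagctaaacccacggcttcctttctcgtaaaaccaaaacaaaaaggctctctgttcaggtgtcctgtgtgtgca
Havcr2: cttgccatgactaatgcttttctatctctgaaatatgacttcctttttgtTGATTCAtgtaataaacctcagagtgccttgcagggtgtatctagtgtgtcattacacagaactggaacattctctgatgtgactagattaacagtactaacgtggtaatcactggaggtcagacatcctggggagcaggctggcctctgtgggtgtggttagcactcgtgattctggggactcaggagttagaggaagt
The Ctla4 stretch held 1 NFAT core, 144 to 140 bases before the start, and no AP-1 motif. The Havcr2 stretch held 1 AP-1 motif, 200 to 194 bases before the start, and no NFAT core. RefSeq stretches were matched for 7 of the 10 genes (not Cd28, Cd86 and Lag3), and the NFAT core was in 5 of these and in 55.6% of all 32851 stretches of this length. The AP-1 motif was in 2, Havcr2 and Cd80, and in 6.75% of all stretches. The motifs did not overlap within the printed stretches, and a match is a description of the letters, not a binding site.

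Values were also set against markers of the cells that carry the genes. The mean of the T cell markers differed by -0.22 between sites and that of the macrophage markers by 0.10, so subtracting a list from each array shifts every gene by the same amount. Relative to the T cell markers, Ctla4 was at -0.51, -0.75 and -0.68 in intrakidney tumors 1, 2 and 3 and -0.52, -0.56 and -0.51 in subcutaneous tumors 1, 2 and 3. Its groups then overlapped, with a difference of -0.12 (two-sided exact permutation p = 0.3). Relative to Ptprc or to the macrophage markers the Ctla4 groups did not overlap, with differences of -0.31 and -0.43 (exact permutation p = 0.1 each). The receptor genes Pdcd1, Cd28 and Tigit differed by 0.19, 0.09 and 0.15 relative to the T cell markers (p = 0.2, 0.5 and 0.3 by the same exact test). Lag3 stood at 0.24, -0.01 and 0.13 in intrakidney and -0.29, -0.13 and -0.06 in subcutaneous tumors, groups that did not overlap, a difference of 0.28 (exact permutation p = 0.1). That separation was lost relative to Ptprc, where Lag3 differed by 0.09 (exact permutation p = 0.5).

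Havcr2 differed by -0.25 relative to the T cell markers, with groups that overlapped (exact permutation p = 0.3). Relative to the macrophage markers it was at -3.11, -3.45 and -3.04 in intrakidney and -2.44, -2.63 and -2.83 in subcutaneous tumors, which did not overlap, a difference of -0.57 (exact permutation p = 0.1). Relative to Ptprc the difference was -0.44 with the same p. Cd86 relative to the macrophage markers was at -2.17, -2.27 and -2.21 in intrakidney and -1.86, -1.93 and -2.11 in subcutaneous tumors, also without overlap, a difference of -0.25 (exact permutation p = 0.1). Relative to Ptprc the Cd86 groups overlapped, with a difference of -0.12 (exact permutation p = 0.2). Cd274, Pdcd1lg2 and Cd80 differed by -0.15, -0.15 and 0.15 relative to the macrophage markers, with groups that overlapped (exact permutation p = 0.3, 0.2 and 0.6). Tests against the list set for each gene, with Havcr2 set against both lists, number 11, and the smallest p is 0.367 after adjustment over them. The tests against Ptprc, and of Ctla4 against the macrophage markers, lie outside this adjustment. With 3 tumors per group, none of the tests can go below 0.1.

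**Figure D4:**
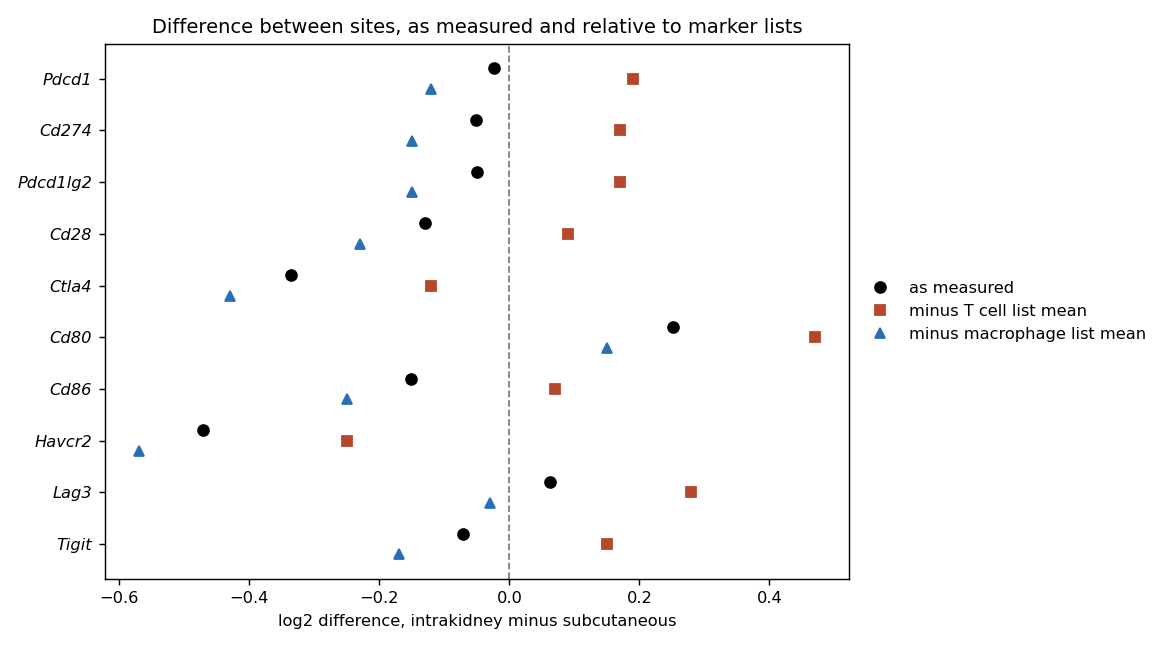
Points show the log2 difference of each checkpoint gene, intrakidney minus subcutaneous, as measured (black circles) and after the mean of the T cell list (red squares) or the macrophage list (blue triangles) was subtracted on each array. Ctla4 moves from -0.34 to -0.12 relative to the T cell list and Havcr2 to -0.57 relative to the macrophage list, while Cd80 is above 0 on all 3 scales.

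Ctla4 had the highest correlation with the T cell markers among the 10 genes. Over the 6 arrays the Pearson correlation of Ctla4 with the T cell mean was 0.95 (two-sided exact permutation p = 0.0014, 0.042 after adjustment over 30 relations) and Spearman's rho was 1.00 (p = 0.0028, adjusted 0.084). Pearson's r was 0.92 without the 2 tumors farthest from the median of the T cell mean. Both measures are lower in intrakidney tumors, and the permutation shuffles all 6 arrays, so its p does not separate the relation from the site. The same holds for the other p-values of this paragraph. Within the groups, after the group means were removed, r was 0.86, with no p attached. With the macrophage mean it was 0.04 over the 6 arrays (exact permutation p = 0.969, adjusted 0.982; rho = -0.31, p = 0.564, adjusted 0.890) but 0.98 within the groups. Ctla4 also ran against the tubule mean (r = -0.92, exact permutation p = 0.0083, adjusted 0.124; rho = -0.83, p = 0.0583, adjusted 0.350), with r at -0.50 without the 2 farthest tumors and -0.86 within the groups. For Havcr2 the correlation with the T cell mean was 0.71 (exact permutation p = 0.126, adjusted 0.421; rho = 0.89, p = 0.0333, adjusted 0.250), 0.81 without the 2 farthest and 0.22 within groups.

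There were 45 pairs of checkpoint genes. Pdcd1lg2 and Cd86 had the highest correlation over the 6 arrays (r = 0.92, and 0.95 within groups), followed by Cd86 and Havcr2 (0.87 and 0.86) and by Ctla4 and Havcr2 (0.80 and 0.50). Cd274 correlated with Pdcd1lg2, its neighbour on the chromosome, at 0.79 (0.78 within groups) and with Havcr2 at 0.74 (0.93 within groups). Pdcd1 ran against its ligand genes, at -0.90 with Cd274 and -0.74 with Pdcd1lg2, while it followed Cd28 at 0.73. Cd80 and Cd86 had an r of -0.29 (0.06 within groups). These correlations describe 6 arrays that also share tissue content, and no p is attached to them.

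**Figure D5:**
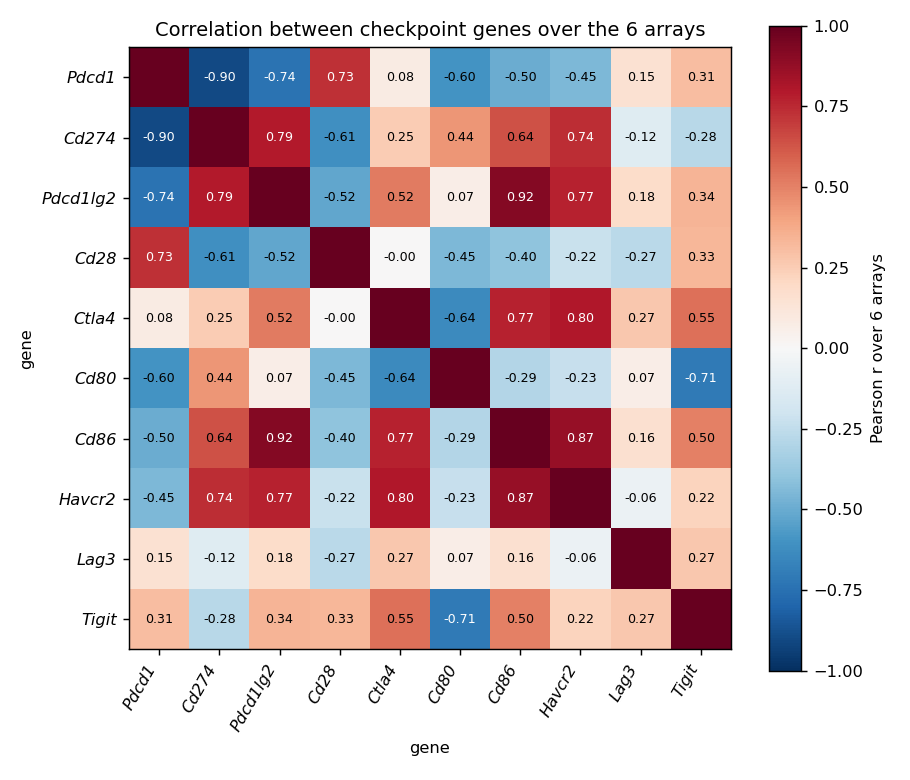
The grid gives the Pearson correlation of each pair of checkpoint genes over the 6 arrays, from blue (-1) to red (1). Cd274, Pdcd1lg2, Cd86 and Havcr2 form a red block with values of 0.64 to 0.92, and Pdcd1 is blue against both of its ligand genes.

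Over all genes whose values spanned at least 0.5, those nearest to Ctla4 were Entpd1, the ectonucleotidase CD39 (r = 0.974 over 6 arrays), 1110032A03Rik (0.962) and the water channel gene Aqp1 (0.957). Those nearest to Havcr2 were Akip1, Rnls and Clk1 (0.995, 0.990 and 0.989). Cd86 was nearest to Mpeg1, a pore-forming protein gene of macrophages (0.996), then Mastl and Dram2 (both 0.992). Cd80 was nearest to Amy1 (0.992), Trem1, a receptor gene of neutrophils and monocytes (0.990), and Hal (0.989), and Cd274 to Sema4d (0.987), Slamf7 (0.965) and H2ac4 (0.962). For the other 5 genes the 3 nearest had r of 0.938 to 0.997. Among these were Fshb, Mybphl and Olfr116 for Pdcd1 (0.997, 0.991 and 0.979) and Nox1, Olfr118 and Mir496a for Cd28 (0.986, 0.985 and 0.972). With only 6 arrays and this many genes compared, an r this high can arise without any relation. A near gene is therefore not read as sharing a cell or a function with the checkpoint gene. Over all 10 checkpoint genes, between 6 (Tigit) and 117 (Cd86) genes of about 4093 had r above 0.9.

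Other co-signalling genes, the further partners and relatives of these receptors, showed no site difference past the test either: 0 of 25 measured genes passed, 14 lay higher and 11 lower, and the median difference was 0.01. Their groups did not overlap for 5 of the 25, or 20.0%, beside 14.9% of all genes. Ceacam1, whose protein is a partner of TIM-3 on T cells and a surface protein of epithelium and vessels, measured 7.04, 6.87 and 7.21 in intrakidney and 6.65, 6.44 and 6.02 in subcutaneous tumors, a difference of 0.67 ± 0.17 (SE; limma, adjusted p = 0.266). The co-stimulatory receptor gene Icos, a relative of Cd28, measured 6.34, 6.53 and 6.35 against 6.89, 6.61 and 6.72, separate groups that differed by -0.34 (limma, adjusted p = 0.379). Timd4, a phosphatidylserine receptor gene of resident macrophages, differed by 0.31 (adjusted p = 0.408).

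None of the ligand genes of TIM-3, TIGIT and LAG-3 named here passed the test. Lgals9, a ligand of TIM-3, differed by 0.04, and Pvr and Nectin2, the TIGIT ligands, by 0.006 and 0.13. Pvr measured 10.98 to 11.33 in intrakidney and 11.11 to 11.27 in subcutaneous tumors, so the groups lay on each other. Fgl1, a LAG-3 ligand gene also expressed in liver and proximal tubule, measured 5.37, 5.68 and 8.34 in intrakidney tumors, its high value in the tumor with the most tubule transcripts, against 5.31 to 5.60 under the skin (limma, adjusted p = 0.783). Havcr1, a relative of Havcr2 that marks injured tubule, likewise measured 5.90, 6.17 and 7.33 against 5.22 to 5.72. The part of tubule content in either value was not tested.

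Downstream of the receptors, 0 of 17 measured genes of T cell receptor and CD28 signalling passed, with 9 higher, 8 lower and a median of 0.00. Grap2, an adaptor of that pathway, measured 7.03, 6.77 and 6.71 in intrakidney and 7.50, 7.34 and 7.25 in subcutaneous tumors, separate groups that differed by -0.53 ± 0.11 (SE; limma, adjusted p = 0.170). Ptpn22 differed by -0.27 and Ptpn6, the phosphatase SHP-1, by 0.17. Of 17 measured regulators of T cell activation and exhaustion, 0 passed, 7 lay higher and 10 lower, with a median of -0.09; Id3 differed by 0.42, Nr4a3 by -0.39 and Prdm1 by -0.30 (adjusted p = 0.260, 0.360 and 0.376).

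Of the interferon gamma pathway, which induces PD-L1, 0 of 14 measured genes passed, 7 lay higher and 7 lower, and the median was 0.01. Ifng itself measured 6.15, 6.20 and 6.17 in intrakidney and 6.23, 6.14 and 6.34 in subcutaneous tumors, overlapping groups that differed by -0.06 (limma, adjusted p = 0.906). Socs3, a feedback inhibitor of cytokine signals, differed by 0.58 ± 0.11 (SE, adjusted p = 0.140), the chemokine gene Cxcl10 by 0.44 and Stat3 by 0.10. Foxp3, the factor of regulatory T cells, which carry much CTLA-4, measured 6.96, 7.05 and 6.90 against 7.12, 7.12 and 7.23, a difference of -0.18 with groups apart (adjusted p = 0.570). All 6 regulatory T cell markers lay lower in intrakidney tumors, 0 of them past the threshold.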

How the data were processed

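RNA of 6 tumors, 1 per mouse, was hybridised to Affymetrix Mouse Gene 1.0 ST arrays. The deposited values are log2 expression values made by the authors, who used affy and RMA, per the submitters' processing notes; software versions and the build are not given in the sources used here. RMA subtracts background, aligns the arrays' distributions and combines the probes of a row, so differences of dim genes are compressed. Values between 2.31 and 15.07 were read as log2.

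Rows paired with exactly 1 gene by the platform annotation were kept (21789 of 35512), and for a gene with several rows the row with the highest mean over the 6 arrays was used, which left 19938 genes. The fit was tested on simulated data. The sites were compared in R 4.3.3 with limma 3.58.1 (two-sided, no filter), with Benjamini-Hochberg adjustment over all genes and a threshold of 0.05. Values relative to marker lists and correlations with marker means were tested by exact permutation over arrays. The plan held correlations as a description without p, so the tests of correlation with marker means were additions to it. The alternatives were median centring, quantile normalization, dropping genes whose mean is below the 40th percentile, adding 16 on the linear scale, every row tested, the mean of a gene's rows, array weights, an intensity trend with robust prior, a block for the replicate number, dropping each array, and an adjusted p of 0.01. Covariate fits, the fit without intrakidney tumors 2 and 3, and the ratios of gene pairs were chosen after values were seen. The checkpoint genes and all lists were chosen with earlier results of these data known. Named genes were drawn from the checkpoint genes, the 3 genes with the smallest p of a list, genes past the threshold, the 3 nearest genes by correlation among those spanning at least 0.5 on the log2 scale, and Ptprc, Ifng and Foxp3; genes outside this rule were chosen after their values were seen. Some listed genes are not reported here.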

Additional observations from a re-analysis of the deposited data

How the results depend on the processing

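None of the 10 checkpoint genes passed with limma. At an unadjusted p of 0.05, 2 did, and of the alternatives only array weights brought 1 of them, Ctla4, past the threshold. The checkpoint genes with separate groups numbered 5 without intrakidney tumors 2 and 3, where 1 array is set against 3 and 62.4% of all genes have separate values. Over all genes the 46 calls became 101 without dim genes, 74 with the offset, 138 with the intensity trend, 624 with array weights, 0 with every row tested, 0 with the replicate number as a block, 5 at an adjusted p of 0.01, 30 without intrakidney tumors 2 and 3, and 6 and 1 with the tubule or the T cell mean as covariate. Leaving out 1 array gave 2 to 33 calls: 21 without intrakidney tumor 1 and 2, 3 and 4 without subcutaneous tumors 1, 2 and 3. Same-numbered tumors did not pair (correlations of their deviations 0.374, -0.159 and 0.104), and the block changed no checkpoint gene's call.

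Ctla4, Cd28 and Havcr2 kept their sign in every alternative in which they were tested. For Ctla4 and Havcr2, whose groups do not overlap, leaving out arrays could not change the sign. The differences near 0 changed sign: Cd274 was 0.005 with array weights, 0.012 without intrakidney tumors 2 and 3, and -0.12 to 0.045 when each array was left out. Pdcd1lg2 was 0.069 without intrakidney tumors 2 and 3, 0.025 with the tubule and 0.043 with the T cell covariate. Cd80 was -0.037 with the T cell covariate, where Cd86 was 0.076. Without intrakidney tumors 2 and 3, Cd86 was 0.029 and Tigit 0.012. Tigit was 0.064 and 0.098 with the tubule and T cell covariates and -0.11 to 0.008 without each array. Lag3 was -0.007 with array weights, -0.057 with the macrophage covariate and -0.045 to 0.12 without each array, and Pdcd1 was -0.066 to 0.027. The cause of these changes was not tested.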

Other observations

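Ratios of 4 gene pairs within an array were chosen after the values were seen, and none of their exact permutation tests can go below p = 0.1. The log2 ratio of Cd80 to Cd86 was -0.72, -0.69 and -0.19 in intrakidney tumors 1, 2 and 3 and -1.10, -0.90 and -0.82 in subcutaneous tumors, groups that did not overlap, and it differed by 0.40 (two-sided exact permutation p = 0.1, the smallest possible here). The ratio of Havcr2 to Lag3 was 0.23, 0.03 and 0.41 against 1.07, 0.76 and 0.44, a difference of -0.53 (exact permutation p = 0.1). The ratio of Ctla4 to Cd28 overlapped between sites (difference -0.21, exact permutation p = 0.5), and that of Cd274 to Pdcd1lg2 was 2.35 ± 0.13 and 2.35 ± 0.05 (SD, n = 3 per group). The level of a ratio reflects the probes of both genes and only its difference between tumors is read here.

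Markers of other leukocytes that carry checkpoint ligands or receptors gave mixed values. Ccr7, the homing receptor gene of migrating dendritic cells and naive T cells, measured 7.62, 7.62 and 7.68 in intrakidney and 8.07, 8.11 and 8.07 in subcutaneous tumors, groups far apart relative to their spread, a difference of -0.45 ± 0.07 (SE; limma, adjusted p = 0.0587). Cd83, which marks mature dendritic cells, differed by -0.28 and Clec9a by 0.285 (limma, adjusted p = 0.565 and 0.769). Of the 9 dendritic cell markers, 5 lay higher and 4 lower in intrakidney tumors, with a median of 0.06. The 6 NK cell markers all had means below the 40th percentile of all genes.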
